A study of Mus musculus with 6 samples.

Results

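The genes described here were the 235 protein-coding genes of chromosomes 5 and 14 that carried only a provisional name, Gm followed by a number, in the deposited table of 26743 genes. These predicted genes were chosen by chromosome, biotype and name, 83 on chromosome 5 and 152 on chromosome 14. Both chromosomes were chosen from the same comparison of genotypes that is described below, since they held many decreased genes. The differences between genotypes are therefore given as descriptions, without p-values for the members. Total RNA from testes of 3 WT and 3 Trf2-/- male mice was sequenced at post-natal day 21, and both genotypes had the same age and tissue. The Trf2-/- mice carried an inactivated Trf2 (TBP-related factor 2) gene on both alleles, and no other allele or treatment was named. The study's methods give a 129/SvPas background where they describe its tagged Trf2 line, and do not give that of the Trf2-/- line separately. The question was whether tandem gene families made up the decreased genes of these chromosomes.

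Provisional Gm names are given to gene models that were predicted from sequence and had no functional name. Many lie in young, mouse-specific families that arose by repeated duplication, and several of these are transcribed mainly in the testis. On chromosome 14 the largest such group is related to the takusan genes, known from synapses and related in part to the scaffold gene Dlg5. On chromosome 5 the Speer genes, which encode spermatogenesis associated glutamate-rich proteins, form clusters of the same kind. Trf2, listed as Tbpl1, encodes a relative of the TATA-binding protein that acts with TFIIA, and mice without it fail to complete the development of haploid spermatids.

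Reads were 50 bases long and single-end, and WT libraries held 21582123 to 29859347 counted reads, Trf2-/- libraries 15187062 to 24530489. The inactivated gene Tbpl1 had 6119 to 8840 counts in WT and 882 to 1586 counts in Trf2-/- mice. Of the marker lists, 4 of the 5 tested round spermatid genes fell, and their summed level was 16.1 to 17.8 CPM in WT and 7.78 to 9.96 CPM in Trf2-/- testis (CPM, counts scaled to library size with TMM factors). For pachytene spermatocyte genes 1 of 6 fell, and the sums were 4437 to 4642 CPM and 3115 to 3741 CPM. Ldhc was the largest part of these sums, with means of 2279 CPM in WT and 1407 CPM in Trf2-/- testis. Log2 fold changes were -1.37 for Pgk2, -0.78 for Spag6, -0.70 for Ldhc, -0.25 for Piwil1, 0.24 for Sycp3 and 0.29 for Sycp1. None of the 6 spermatogonial, 5 Sertoli, 6 Leydig and 4 peritubular genes tested was called, and 1 of 4 macrophage genes rose. Their part in the results below was not tested. In whole testis, fewer cells of a type and less RNA per cell cannot be told apart.

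Near-identical copies are shown first, because they decide what a short read can tell about these genes. Proteins were grouped into families where at least 50% of residues matched over at least 50% of the shorter protein. This gave 9 families of at least 3 members, which held 142 of the 235 genes, and 5 pairs. Family F1 had 71 members, all on chromosome 14 and all similar to a gene that the table describes as an alpha-takusan protein, and 23 of them also matched Dlg5. Matches to this gene, to Dlg5 and, below, to Ralgds were any hit of the protein search, without the limits used for families. Matches to Speer proteins had a lower limit on identity than the families. The median identity of a member to its nearest relative was 97.8%. The first 90 coding bases of F1 copies are printed from the NCBIM37 transcripts, with capitals where a base differs from the copy with the lowest log2 fold change, Gm3453 (ENSMUSG00000090643, minus strand, chr14:6102767-6111160).
Gm3453: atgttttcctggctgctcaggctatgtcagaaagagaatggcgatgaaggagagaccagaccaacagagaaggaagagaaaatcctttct
Gm6356: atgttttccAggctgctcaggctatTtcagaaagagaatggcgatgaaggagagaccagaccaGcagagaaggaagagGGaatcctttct
Gm8374: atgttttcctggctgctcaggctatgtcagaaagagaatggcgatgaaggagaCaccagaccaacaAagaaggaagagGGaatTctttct
Gm3248: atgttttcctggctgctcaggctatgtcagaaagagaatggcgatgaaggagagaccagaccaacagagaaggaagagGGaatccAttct
Gm3629: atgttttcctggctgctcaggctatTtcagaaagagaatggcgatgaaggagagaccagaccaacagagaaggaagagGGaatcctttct
Gm8104: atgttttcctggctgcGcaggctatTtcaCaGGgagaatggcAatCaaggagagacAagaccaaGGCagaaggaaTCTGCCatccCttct
Gm6356 and Gm8374 each differed from Gm3453 at 5 of the 90 bases, Gm3248 and Gm3629 at 3, and Gm8104 at 18. Of the 71 windows, 43 differed from Gm3453 at 6 bases or fewer.

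Family F3 had 15 members on chromosome 5, all of them matched a Speer protein, and 12 also matched Dlg5. Their windows are printed because a gene that fell and a gene that was not called shared the same letters. Capitals mark differences from Gm5862 (ENSMUSG00000067700, minus strand, chr5:26343818-26349456).
Gm5862: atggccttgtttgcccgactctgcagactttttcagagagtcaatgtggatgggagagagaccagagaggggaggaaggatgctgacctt
Gm7361: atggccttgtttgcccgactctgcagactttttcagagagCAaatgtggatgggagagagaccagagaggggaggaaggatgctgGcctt
Gm7347: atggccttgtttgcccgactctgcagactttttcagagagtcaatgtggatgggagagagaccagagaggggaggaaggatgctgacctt
The window of Gm7347 had 0 differences from Gm5862, and that of Gm7361 had 3. In family F7, which had 5 members on chromosome 5 close to 4933402N22Rik, the 3 tested copies Gm5152, Gm6455 and Gm8879 had the same first 90 bases of annotated coding sequence. The annotated coding sequence of all 5 F7 copies and all 19 F2 copies begins without a start codon. Proteins were translated from the first annotated base, so the reading frame of these copies is uncertain. The Gm5152 window shares a long stretch of letters with that of the F3 copy Gm8906, so F3 and F7 were not separate in DNA.
Gm5152: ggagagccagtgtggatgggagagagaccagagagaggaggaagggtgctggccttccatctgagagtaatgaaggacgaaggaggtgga
Family F2 had 19 members on chromosome 14, all matching 1700091H14Rik, and none passed the filter on low counts. The 3 copies with the most counts are printed, with capitals where they differ from Gm16506 (minus strand, chr14:44299918-44305150).
Gm16506: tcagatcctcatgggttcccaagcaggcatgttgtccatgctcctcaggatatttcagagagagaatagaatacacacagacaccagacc
Gm8232: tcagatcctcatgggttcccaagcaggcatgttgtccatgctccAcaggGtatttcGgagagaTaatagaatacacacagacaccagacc
Gm8138: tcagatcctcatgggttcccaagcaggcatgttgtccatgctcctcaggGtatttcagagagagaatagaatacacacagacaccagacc
Over the first 90 bases of annotated coding sequence, the 19 windows of F2 differed from Gm16506 at 4 bases at most. From its first atg, the window of Gm8138 has the letters with which Gm8094 of family F4 begins. F2 and F4 were therefore apart by translated protein, but not in this DNA.

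The copies left little sequence of their own to a 50-base read. Of the 50-base windows inside the merged exons of a gene, the median member had 31.3% that occurred once in NCBIM37, and 144 of the 234 members with such windows were under 50%. Among other protein-coding genes the median was 100%, and 3.9% were under 50%. The median was 16.1% for members of families and 97.9% for the others. How the counting treated reads that fit several places was not given in the sources used here, so a count of a family copy is uncertain. In counts summed over a family, reads exchanged between its copies cancel, but reads left out of the counting stay missing. Reads exchanged between families do not cancel. Coding letters were shared between copies of F1 and F6, of F2 and F4, and of F3 and F7, so these sums are not independent.

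**Figure D1:**
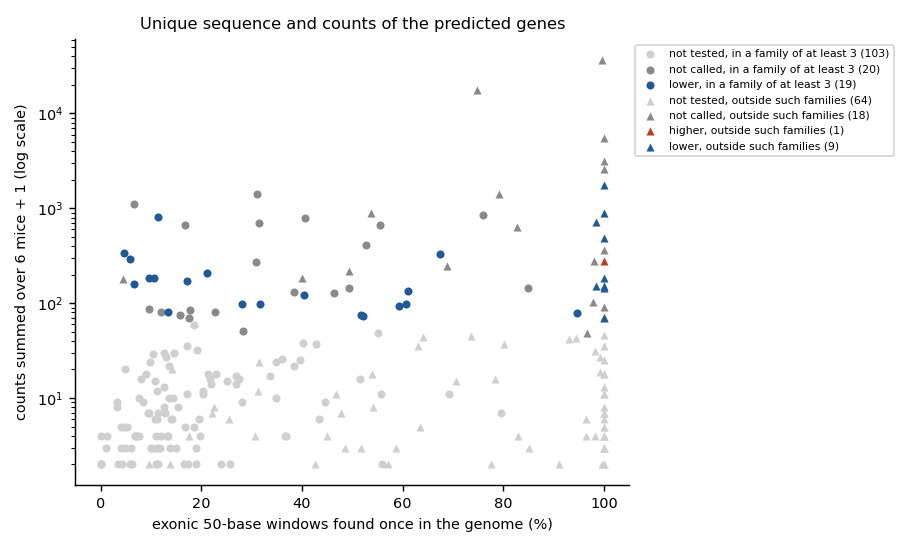
Share of exonic 50-base windows that occur once in the genome (x axis, percent) against counts summed over 6 mice plus 1 (y axis, log scale) for 234 predicted genes, with circles for members of families of at least 3, triangles for the others, and blue for genes that fell. Members of families lie mostly at the left, and 9 of the 28 genes that fell lie at 95% or more, none of them in a family.

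Most members were weakly expressed. Of the 235 genes, 101 had at most 3 counts in every mouse, and 67 passed the filter of edgeR, 32 on chromosome 5 and 35 on chromosome 14. All counted members together took 0.0637 to 0.0703% of the reads in WT and 0.0581 to 0.0585% in Trf2-/- mice. The filter let 43 members through with every mouse over its limit. A further 21 had every WT mouse but not every Trf2-/- mouse over the limit, and 7 of the tested members had no Trf2-/- mouse over it. These had to be higher in WT to be tested at all, so the counts over tested members are a description and do not stand for all members.

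Of the 67 tested members, 28 fell and 1 rose in Trf2-/- testis (adjusted p under 0.05 in the edgeR quasi-likelihood fit across all genes and a fold change of at least 2). Over all 16924 tested genes, 4.3% fell and 0.609% rose. The rule that chose these chromosomes used the same comparison, so nothing is read from the members' share. Of the 28 that fell, 15 did not have every Trf2-/- mouse over the limit of the filter. The median log2 fold change of the tested members was -0.71, against 0.04 over all tested genes. On chromosome 5, 19 of 32 tested members fell and 1 rose, with a median of -1.21. On chromosome 14, 9 of 35 fell, with a median of -0.67. WT and Trf2-/- mice had separate CPM ranges for 47 of the 67 tested members and for 49.2% of all tested genes. At the limit of the call, Gm7337 was just inside at a log2 fold change of -1.01 and Gm5622 just outside at -0.98.

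**Figure D2:**
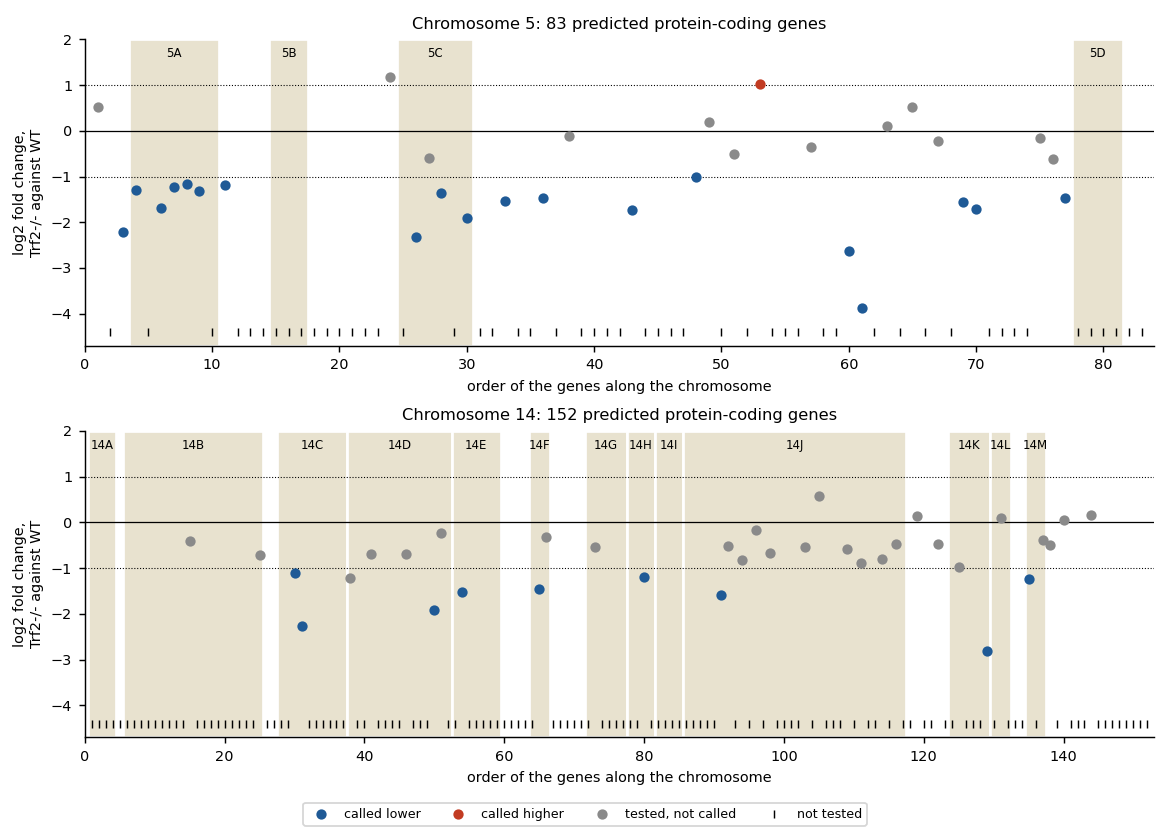
Log2 fold change of Trf2-/- against WT (y axis) for the tested predicted genes in their order along chromosomes 5 and 14 (x axis), with ticks for genes that were not tested, shaded bands for tandem runs and dotted lines at the 2-fold limits. On chromosome 5 the 5 tested genes of run 5A all fell, and on chromosome 14 the points of run 14J lie mostly between 0 and -1.

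Tandem runs were defined by start position, as at least 3 members with at most 200 kb between neighbouring starts. There were 17 runs, 4 on chromosome 5 with 20 members and 13 on chromosome 14 with 117 members. Of the 28 members that fell, 17 lay in runs and 11 outside. In runs 39 of 137 members were tested and their median log2 fold change was -0.89, and outside runs 28 of 98 were tested with a median of -0.48. By sequence in place of position, 19 of the members that fell belonged to families of at least 3 and 9 did not. All 39 tested family members had a log2 fold change below 0, from -2.81 to -0.17, with a median of -1.10. Of the 16924 genes tested in all, 7631 were below 0. The chromosomes were chosen by this comparison, the filter favoured genes higher in WT, and copies may share reads. The 39 values are therefore not separate observations, and nothing is read from their common direction. The 28 tested members outside families ran from -3.87 to 1.17 with a median of -0.31. Either in a run or in a family were 20 of the 28, namely 9 of 9 on chromosome 14 and 11 of 19 on chromosome 5. Of all tested members 31 of 35 on chromosome 14 and 14 of 32 on chromosome 5 were in a run or a family, so most tested genes of chromosome 14 were of this kind. The definition of a run decided the split by position. With gaps of at most 50 kb 5 of the 28 lay in runs, and with gaps of at most 1000 kb 23 did.

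Families F3 and F7 of chromosome 5 held 10 of the 28 members that fell. F3 matched Speer proteins, and F7 shared coding letters with F3 but was grouped apart by its translated protein. In family F3 8 of 15 members were tested and 7 fell. Gm5862 had 47, 40 and 26 counts in WT and 7, 12 and 0 counts in Trf2-/- mice. Every Trf2-/- mouse lay below every WT mouse, and the levels were 1.47 ± 0.202 CPM (SD, n = 3 mice) and 0.264 ± 0.258 CPM (SD, n = 3), a log2 fold change of -2.33 (standard error 0.50). It was at -3.11 without Trf2-/- mouse 2 and at -1.90 without Trf2-/- mouse 3, called in both. Gm7361 (plus strand, chr5:26584231-26590848) had 20, 38 and 17 counts in WT and 5, 11 and 1 counts in Trf2-/- mice, a log2 fold change of -1.90 (standard error 0.52). This call depended on single mice, as it was lost without WT mouse 2 at -1.51 and without Trf2-/- mouse 1 at -1.71, and it was called at -2.74 without Trf2-/- mouse 2. Gm7347, which shares its first coding bases with Gm5862, had 10, 12 and 10 counts in WT and 1, 12 and 5 counts in Trf2-/- mice. It was not called, its ranges overlapped, and its log2 fold change was -0.58 (standard error 0.60). This value rested on single mice, at 0.01 when Trf2-/- mouse 1 was left out and at -1.49 when Trf2-/- mouse 2 was. The coordinates of these 3 copies fall in run 5C, with 6 members over 259.6 kb, of which 4 were tested and 3 fell.

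Run 5A held 7 members over 389.9 kb, and its 5 tested genes all fell. They belonged to F3 and F7. Gm8857, an F3 member with 96.1% identity to Speer1-ps1, had 40, 51 and 33 counts in WT and 16, 11 and 6 counts in Trf2-/- mice. The ranges did not overlap, and the log2 fold change was -1.68 (standard error 0.27). Gm8897 had 95, 82 and 73 counts in WT and 47, 23 and 17 counts in Trf2-/- mice, with a log2 fold change of -1.31 (standard error 0.24). Gm8897 overlaps Gm5861 and Speer1-ps1, so its reads may be shared with them. Gm5861 itself had 55, 47 and 30 counts in WT and 19, 23 and 8 in Trf2-/- mice, at -1.16 (standard error 0.27). Its call was lost without WT mouse 1, at -1.08, and without Trf2-/- mouse 3, at -0.99. The F7 genes of the run, Gm8879 and Gm6455, have 572 bases of annotated coding sequence without a start codon, so their proteins are uncertain. Gm8879 (ENSMUSG00000091602, plus strand, chr5:11127634-11132487) had 239, 205 and 150 counts in WT and 89, 93 and 37 counts in Trf2-/- mice. Its level was 7.79 ± 0.568 CPM (SD, n = 3) in WT and 3.29 ± 0.851 CPM (SD, n = 3) in Trf2-/- testis, with no overlap. The log2 fold changes were -1.22 (standard error 0.18) for Gm8879 and -1.29 (standard error 0.27) for Gm6455. Gm8906 of F3 and Gm5152 of F7 lie near the run without belonging to it. Gm5152 had 30, 34 and 19 counts in WT and 7, 7 and 1 in Trf2-/- mice, at -2.22 (standard error 0.39), and Gm8906 was at -1.19 (standard error 0.24).

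Genes that already carry a Speer name and are no members were listed beside them. Of 11 such genes 7 were tested and 6 fell, with a median log2 fold change of -1.45. Speer4b was at -2.12, Speer4f at -2.58 and Speer1-ps1 at -1.45. Speer2 on chromosome 16 was not called and was at -0.77, with 1503 to 2109 counts in WT and 534 to 1159 counts in Trf2-/- mice.

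Family F1 lay in separate stretches of chromosome 14, with 56 members before 10 Mb, 12 past 40 Mb and 3 between. Of its 71 members 20 were tested and 7 fell. Gm3453, in run 14C, had 52, 76 and 47 counts in WT and 9, 15 and 7 counts in Trf2-/- mice. The genotypes did not overlap, and the levels were 2.33 ± 0.553 CPM (SD, n = 3) and 0.481 ± 0.147 CPM (SD, n = 3). The log2 fold change was -2.26 (standard error 0.30), although 21.2% of its exonic windows were unique. Gm6356 (minus strand, chr14:7797963-7806332), in run 14D, had 22, 21 and 16 counts in WT and 4, 7 and 2 counts in Trf2-/- mice, at -1.93 (standard error 0.36). It overlaps Gm10406, which had 21, 25 and 10 counts in WT and 15, 7 and 7 in Trf2-/- mice and was not called at -0.70 (standard error 0.37). The 5 tested copies of run 14D had log2 fold changes from -1.93 to -0.24. Gm3629 of the same run had the highest counts of F1 there, 210, 325 and 185 in WT and 147, 145 and 89 in Trf2-/- mice, and was not called at -0.69 (standard error 0.19). Gm3597 of run 14D had 24, 24 and 10 counts in WT and 6, 15 and 0 in Trf2-/- mice, and was not called at -1.23 (standard error 0.62). It was called without Trf2-/- mouse 2, at -2.37.

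Of the other F1 genes, Gm8374 in run 14E and Gm8104 in run 14J fell at -1.52 (standard error 0.27) and -1.60 (standard error 0.30). Gm8104 had 36, 38 and 20 counts in WT and 8, 12 and 6 in Trf2-/- mice, with no overlap. Gm7995, in run 14H, had 74, 94 and 42 counts in WT and 25, 40 and 13 in Trf2-/- mice, at -1.19 (standard error 0.31), and 5.78% of its exonic windows were unique. This call was lost in 3 of the 6 fits that left out a mouse, without WT mouse 1 at -1.24, without WT mouse 2 at -0.95 and without Trf2-/- mouse 1 at -1.06. Gm3248 had 18, 22 and 13 counts in WT and 11, 7 and 3 in Trf2-/- mice, at -1.10 (standard error 0.35). Its call held in 1 of the 6 fits that left out a mouse, that without Trf2-/- mouse 1. It was also lost with the DESeq2 Wald test at -1.14, without a filter at -1.10 and with the replicate block at -1.12. Gm5458 of run 14F was not called, with 14, 20 and 15 counts in WT and 18, 10 and 6 in Trf2-/- mice. In run 14K, Gm5622 had 109, 99 and 78 counts in WT and 47, 41 and 34 in Trf2-/- mice. It was just under the 2-fold limit and was called without Trf2-/- mouse 3, at -1.05.

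Run 14J was the longest, with 32 members over 1796 kb. Of its 11 tested members 1 fell, Gm8104. Gm6526 of F1 had 216, 164 and 148 counts in WT and 143, 110 and 60 in Trf2-/- mice, at -0.54 (standard error 0.16). Gm9732, an F6 gene close to D830030K20Rik, had 395, 242 and 175 counts in WT and 247, 226 and 134 in Trf2-/- mice. Its ranges overlapped and its log2 fold change was -0.17 (standard error 0.18). Gm5624, in no family, had 224, 210 and 166 counts in WT and 109, 143 and 48 in Trf2-/- mice, at -0.80 (standard error 0.21). It was called without Trf2-/- mouse 2, at -1.09. The run therefore held genes of several families and genes of none. The log2 fold changes of its 11 tested members ran from -1.60 to 0.57, and the highest value was that of a gene outside the families.

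Because reads of near-identical copies cannot be assigned with confidence, counts were summed over each family and fitted beside the genes. F1 had 1415, 1495 and 1057 summed counts in WT and 814, 751 and 391 in Trf2-/- mice, a log2 fold change of -0.81 (standard error 0.11). The F1 members before 10 Mb were at -0.90 (standard error 0.16) and those past 40 Mb at -0.74 (standard error 0.10). F3 had 379, 348 and 269 counts in WT and 139, 134 and 49 in Trf2-/- mice, at -1.43 (standard error 0.19). F7 had 323, 300 and 203 counts in WT and 123, 121 and 47 in Trf2-/- mice, at -1.29 (standard error 0.18). For these 3 families every Trf2-/- mouse was below every WT mouse, and the Trf2-/- means were 56.7%, 36.4% and 40.1% of the WT means.

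The sums also gave values for families whose single copies were too weak to test. F2 had 76, 73 and 55 counts in WT and 21, 21 and 5 in Trf2-/- mice over its 19 copies, which is 2.69 ± 0.0882 CPM (SD, n = 3) and 0.683 ± 0.320 CPM (SD, n = 3). The log2 fold change was -1.90 (standard error 0.28), with no overlap. F2 shared coding letters with F4, so these sums may exchange reads. F4 had 14 members on chromosome 14, of which 7 had BC061237 as their most similar named gene. All 14 also matched the alpha-takusan gene that F1 matched, and 7 matched Dlg5. It had 70, 70 and 37 counts in WT and 11, 17 and 1 in Trf2-/- mice, at -2.37 (standard error 0.43). The sum was at -2.9998 without Trf2-/- mouse 2 and at -1.99 without Trf2-/- mouse 3. The lone tested F4 gene was Gm5800 (ENSMUSG00000068506, minus strand, chr14:52331318-52336858), with 30, 28 and 11 counts in WT and 4, 4 and 0 in Trf2-/- mice. It fell with a log2 fold change of -2.81 (standard error 0.55), and 94.7% of its exonic windows were unique. Without Gm5800 the other 13 members of F4 had 40, 42 and 26 counts in WT and 7, 13 and 1 in Trf2-/- mice. F5, with 6 members on chromosome 5 that match Ralgds, an activator of the Ral GTPases, was at -0.90 (standard error 0.17). The sums of F6, F8 and F9, related to D830030K20Rik, the glycolytic enzyme gene Gapdh and the zinc finger gene Zfp932, had overlapping ranges and log2 fold changes of -0.28, -0.37 and -0.29. All 103 family members that were not tested had 283, 259 and 196 counts in WT and 121, 131 and 37 in Trf2-/- mice, at -1.16 (standard error 0.24). The 65 untested members outside families had 172, 107 and 90 counts in WT and 113, 151 and 86 in Trf2-/- mice, with overlapping ranges, at 0.18 (standard error 0.20).

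**Figure D3:**
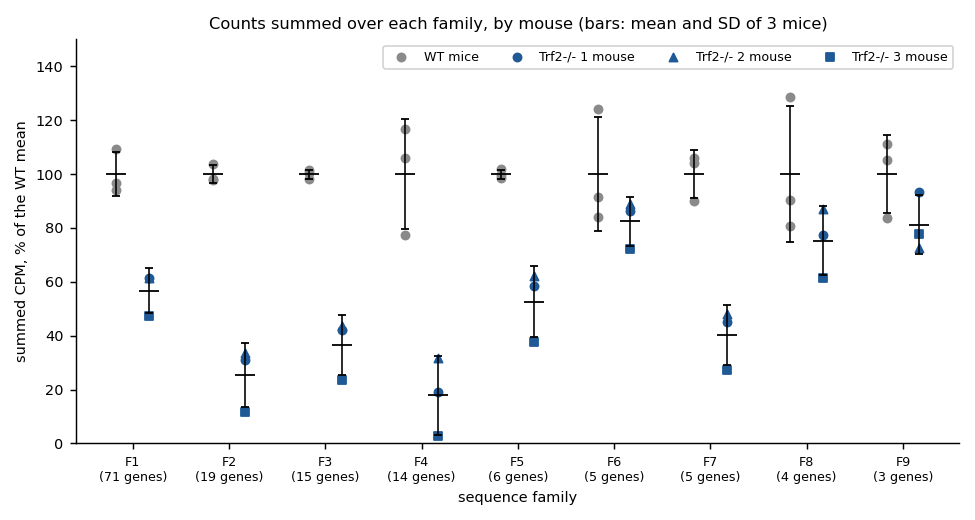
Counts summed over each of the 9 sequence families and scaled to CPM, as percent of the WT mean (y axis), for the 3 WT mice (grey) and the 3 Trf2-/- mice (blue), with bars for the mean and SD of 3 mice. In F1 to F5 and F7 all Trf2-/- mice lie below all WT mice, while in F6, F8 and F9 the ranges overlap.

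On chromosome 5, 8 members that fell lay in neither a run nor a family of at least 3. Gm6583 (ENSMUSG00000051503, minus strand, chr5:112782821-112785053) and Gm6588 (ENSMUSG00000072722, plus strand, chr5:112878446-112880758) formed a pair whose starts were 95.6 kb apart. Both are single-exon genes, and their nearest named relative by protein was Ccdc121, a coiled-coil gene, with 45.0% and 44.0% identity. Gm6588 had 46, 56 and 40 counts in WT and 3, 5 and 0 counts in Trf2-/- mice. Its levels were 1.89 ± 0.272 CPM (SD, n = 3) and 0.111 ± 0.107 CPM (SD, n = 3), the lowest log2 fold change of the tested members at -3.87 (standard error 0.45). Without Trf2-/- mouse 2 it was at -4.61 and without Trf2-/- mouse 3 at -3.47. Gm6583 had 253, 184 and 187 counts in WT and 40, 38 and 10 in Trf2-/- mice, at -2.62 (standard error 0.26). Neither gene overlapped between genotypes, and 98.4% of the exonic windows of each were unique. Gm6583 lies within Hps4 on the other strand, which was not called at -0.19, and Gm6588 within Sez6l on the other strand, which was not tested.

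Of these 8 genes, 6 overlapped a gene on the other strand. The library kit kept strand, but the strand setting of the counting was not given in the sources used here, so reads of such partners cannot be told apart. Gm16401 had 57, 44 and 46 counts in WT and 20, 12 and 6 in Trf2-/- mice, at -1.73 (standard error 0.28), and its partner Prom1, a membrane glycoprotein gene, fell too, at -1.26. Gm5129 had 46, 38 and 27 counts in WT and 11, 11 and 10 in Trf2-/- mice, at -1.53 (standard error 0.25), and its partner Dnajb6, a chaperone gene, was not called at -0.41. Neither of these members overlapped between genotypes.

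The other named genes outside runs and families were Gm10382, Gm4868 and Gm7337, all with a single exon. Gm10382 had 276, 220 and 193 counts in WT and 75, 84 and 42 in Trf2-/- mice, with no overlap, at -1.55 (standard error 0.14). The proteins of Gm4868 and Gm7337 resembled those of genes elsewhere. Gm4868, with 57.5% identity to the spindlin gene Spin2, had 16, 19 and 19 counts in WT and 5, 9 and 0 in Trf2-/- mice, at -1.72 (standard error 0.56). Its call was lost in 5 of the 6 fits that left out a mouse, where its log2 fold change ran from -1.90 to -1.30. It held without Trf2-/- mouse 2, at -2.54, and was also lost with the DESeq2 Wald test at -1.82 and with the replicate block at -1.74. Gm7337, with 70.9% identity to Dzip1, a gene of the ciliary base, had 137, 114 and 87 counts in WT and 69, 46 and 29 in Trf2-/- mice. It was just inside the limit and its call was lost without WT mouse 1, Trf2-/- mouse 2 or Trf2-/- mouse 3, at -0.95, -0.94 and -0.90.

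On chromosome 14, Gm5142 (ENSMUSG00000053868, minus strand, chr14:59777340-59797586) was the member with the highest level per length among those that fell, at 681 counts per kb in WT. It lies in run 14M but in no family, and all of its exonic windows were unique. It had 472, 467 and 339 counts in WT and 200, 208 and 67 in Trf2-/- mice, with no overlap. Its level was 16.9 ± 0.889 CPM (SD, n = 3) in WT and 7.03 ± 2.47 CPM (SD, n = 3) in Trf2-/- testis, a log2 fold change of -1.23 (standard error 0.21). Without Trf2-/- mouse 3 it was at -0.995 and no longer called. Its neighbour in the run, Gm6907, later named Phf11c, had 151, 132 and 99 counts in WT and 99, 105 and 46 in Trf2-/- mice and was not called, at -0.40 (standard error 0.17).

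**Figure D4:**
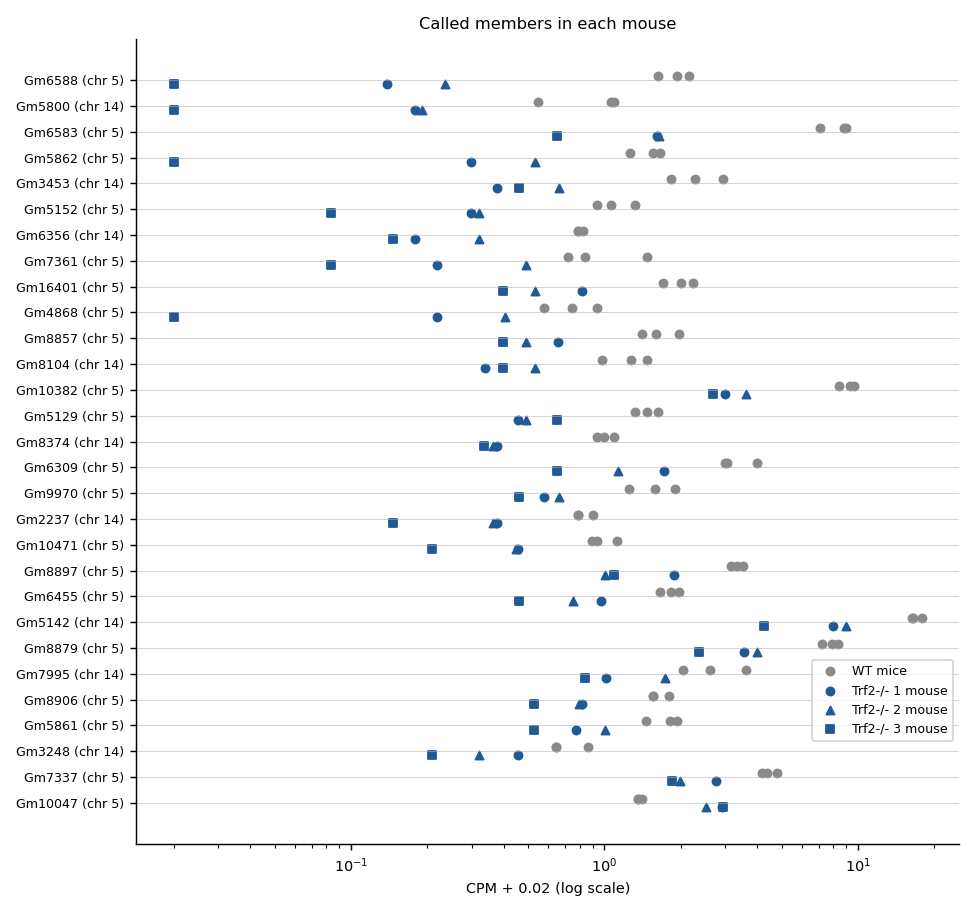
Level in each mouse (x axis, CPM plus 0.02, log scale) of the 29 called members (y axis), with WT mice in grey and the 3 Trf2-/- mice as blue circles, triangles and squares. The genotypes do not overlap in any of the 28 genes that fell, which the call itself favours, and in 49.2% of all tested genes. Trf2-/- mouse 3 is the lowest mutant mouse in 24 of the 28.

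Gm10047, on the minus strand of chromosome 5 (chr5:104884157-104885486), was the only member that rose, with 40, 35 and 28 counts in WT and 73, 58 and 46 in Trf2-/- mice. The ranges did not overlap, and the log2 fold change was 1.02 (standard error 0.17). It was no longer called without Trf2-/- mouse 1, at 0.96, or without Trf2-/- mouse 3, at 0.99.

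Trf2-/- mouse 3, which also had the fewest reads and the lowest round spermatid sum, was the lowest mutant mouse for 24 of the 28 members that fell. The median log2 ratio to the WT mean over these 28 genes was -1.29, -1.18 and -1.87 in Trf2-/- mice 1 to 3. Without mouse 3, 24 members fell, of which 23 were among the 28.

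The members with the highest counts per kb in WT were not the ones that fell, apart from Gm5142. Gm5465, later named Kbtbd6 and encoding a BTB-kelch adaptor of a ubiquitin ligase, had 1002 counts per kb. Its 3415, 3171 and 2382 counts in WT and 3463, 3019 and 2036 in Trf2-/- mice gave a log2 fold change of 0.16 (standard error 0.05), and it was not called. Gm1673 had 882 counts per kb and was at -0.11 (standard error 0.09). Gm13821, with 481 counts per kb, was at 0.10 (standard error 0.15). Gm15800, later named Hectd4 and encoding a HECT-type ubiquitin ligase, had 453 counts per kb and was at -0.22 (standard error 0.09). None of these 4 genes belonged to a run or a family, and none was called.

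The members' part in the figures for whole chromosomes was given by leaving genes out. Of the tested protein-coding genes, 60 of 956 on chromosome 5 fell (6.28%) and 32 of 527 on chromosome 14 (6.07%), the highest shares of the 20 chromosomes counted, against 3.91% over all of them. Without genes that start inside tandem runs, the shares were 5.4% and 4.72%, ranks 1 and 3. Without predicted genes, 41 of 924 (4.44%) and 23 of 492 (4.67%) fell, ranks 4 and 2, against 3.66% over all chromosomes treated in the same way. Genes with a protein similar to any member, in a family or not, were then left out as well. The shares were 3.93% and 4.37%, ranks 7 and 4, against 3.66%. Predicted genes on the other chromosomes numbered 927, of which 271 were tested and 22 fell (8.12%), with a median log2 fold change of -0.12. The other protein-coding genes of chromosomes 5 and 14 numbered 1747, of which 1416 were tested and 64 fell (4.52%), with a median of 0.03.

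**Figure D5:**
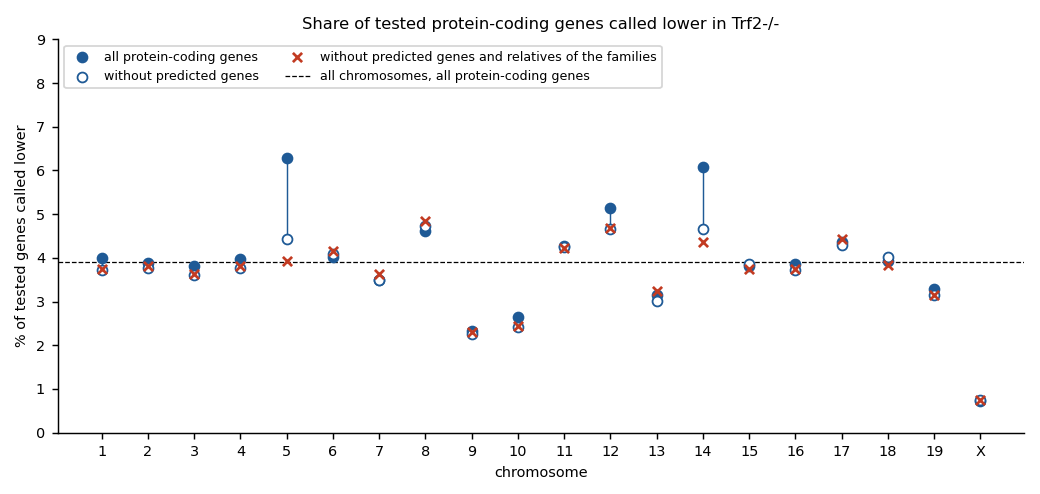
Percent of tested protein-coding genes that fell in Trf2-/- testis (y axis) on each chromosome (x axis), with all genes (filled), without predicted genes (open) and also without relatives of any member (crosses), and a dashed line at 3.91% for all chromosomes. The key calls these relatives of the families, but relatives of members outside families are among them. Chromosomes 5 and 14 drop from 6.28% and 6.07% to 4.44% and 4.67% when predicted genes are left out.

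Promoter sequences were available from RefSeq (GRCm38.p6, a later build than that of the counts) for 116 members, among them 11 that fell. They are shown for the gene with the lowest log2 fold change, for Gm5800 and for an F1 copy, with matches to TGACG, the core of the cAMP response element, in capitals on either strand. Each spans 300 bases around the start of transcription, at chr5:112449176-112449475 (plus strand) for Gm6588, chr14:51717083-51717382 (minus strand) for Gm5800 and chr14:5961632-5961931 (minus strand) for Gm3248.
Gm6588: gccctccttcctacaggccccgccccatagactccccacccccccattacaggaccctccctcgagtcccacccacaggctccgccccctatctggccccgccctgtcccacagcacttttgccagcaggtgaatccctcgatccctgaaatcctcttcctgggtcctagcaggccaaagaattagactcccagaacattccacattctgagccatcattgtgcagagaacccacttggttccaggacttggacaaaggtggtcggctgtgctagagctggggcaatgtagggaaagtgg
Gm5800: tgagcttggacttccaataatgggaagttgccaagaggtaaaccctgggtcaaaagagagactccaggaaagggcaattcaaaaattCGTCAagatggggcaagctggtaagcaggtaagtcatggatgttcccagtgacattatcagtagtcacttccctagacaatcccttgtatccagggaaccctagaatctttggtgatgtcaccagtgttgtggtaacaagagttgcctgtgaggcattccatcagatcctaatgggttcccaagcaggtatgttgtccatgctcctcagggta
Gm3248: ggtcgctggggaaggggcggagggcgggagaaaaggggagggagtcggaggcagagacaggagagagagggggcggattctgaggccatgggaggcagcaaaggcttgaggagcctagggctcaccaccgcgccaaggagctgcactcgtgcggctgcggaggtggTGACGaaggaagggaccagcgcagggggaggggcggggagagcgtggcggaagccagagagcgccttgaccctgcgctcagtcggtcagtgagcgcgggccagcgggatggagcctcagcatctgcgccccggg
GC content was 59.0%, 47.0% and 69.7% in these windows. The TATA box letters TATAAA, searched on both strands, occurred in 1 of the 12 promoters of the members that fell, that of Gm5861, in 7.19% of the 139 promoters of all members and in 13.6% of 32851 promoters in all. TGACG occurred in 3 of the 12, of which 2 are windows of Gm3248 shifted by 6 bases that hold the same match, and so in 2 of the 11 genes, Gm5800 and Gm3248, in 12.2% of the members' promoters and in 20.8% of all. The full element TGACGTCA, which contains TGACG, occurred in 0 of the 12, in 2.88% of the members' promoters and in 1.79% of all.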

How the data were processed

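Total RNA-seq libraries (TruSeq Stranded, Ribo-Zero Gold) of 6 mouse testes were analysed, and the authors called the 3 mice of a genotype independent replicates. Per the submitters' processing notes, reads were processed with CASAVA 1.8.2, TopHat2 2.0.10, Bowtie2 2.1.0, HTSeq 0.5.4p3 and DESeq2 1.0.19 on mm9 (NCBIM37). The strand setting and the annotation release of the counting are not given in the sources used here. The authors deposited raw counts per gene and mouse together with a gene length, another column of the table used for values per kb. A further 12 columns of normalized values per mouse were not used.

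Counts were filtered with filterByExpr, scaled with TMM factors and fitted with edgeR 4.0.16 (R 4.3.3, glmQLFit and glmQLFTest, Benjamini-Hochberg over 16924 genes). The fit had a biological coefficient of variation of 0.0838. Calls (fell or rose) needed a fold change of at least 2 with an adjusted p below 0.05, and the standard error came from the log2 fold change and the F statistic. The members were chosen with the result of this contrast in view, and members and lists were chosen with earlier results of these data known. Positions of 233 of the 235 members equalled those of GENCODE vM1 on NCBIM37, which gave exons and transcripts. Families were built with BLAST+ 2.17.0 (blastp) by single linkage, from coding sequence translated from its first annotated base. Family and run sums were added as rows of the fit. A floor of 3 counts covers counting error only and lay between 0.105 and 0.190 CPM. Alternatives were DESeq2 size factors, library size, the DESeq2 1.42.0 Wald test, other filters, the replicate block, each mouse left out, no fold threshold and other run definitions. Methods were tested on simulated data. In each pair of mice of a genotype chi-square exceeded its degrees of freedom by a factor of 3.32 or more, so none was a library deposited again.

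Named members were the 15 called genes with the lowest and the 10 with the highest log2 fold change, the 5 tested with the highest WT counts per kb, the 2 nearest to the fold limit, and up to 3 uncalled genes with the highest counts from each run with a called gene. The F2 copies and Speer genes that are named were chosen after their values were seen. Marker lists held 6 genes each for round spermatids, pachytene spermatocytes, spermatogonia, Sertoli and Leydig cells, 4 for peritubular cells and 5 for macrophages, of which Rhox5 and Adgre1 were not in the table under these names.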

Additional observations from a re-analysis of the deposited data

How the results depend on the processing

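The number of members that fell was between 23 and 28 in the 6 fits that left out a mouse, 28 with DESeq2 size factors, 27 with library size alone, 26 with the DESeq2 Wald test, 32 without a filter and 37 without a fold threshold. With at least 10 counts in every mouse it was 9 of 36 tested, 4 in runs and 5 outside, and the shares of protein-coding genes that fell were 3.803% on chromosome 5 and 2.954% on chromosome 14. That filter removes genes near 0 in Trf2-/- mice by its construction. The mice shared only replicate numbers, with correlations of same-numbered deviations of -0.0973, -0.0313 and -0.102, and with the replicate block 26 members fell, all among the 28. Without a fold threshold 2 members rose and the chromosome shares were 26.05% and 22.39%. Shares over all genes or all chromosomes are not given for this rule or for the filter of 10 counts. The values under these settings therefore cannot be set against the 3.91% of the main fit and show neither an excess nor its absence. The number that rose was 0 to 1 when a mouse was left out. With gaps of at most 50 kb, 5 members that fell lay in runs and 23 outside, and with gaps of at most 1000 kb 5 lay outside. Leaving out predicted genes and relatives gave 3.93% on chromosome 5. The other 197 values of this kind stayed within 1.5 times the number, or within the spread of the mice, and none changed direction. Of the values for single named genes 29 lost and 3 gained a call, and the other 416 stayed on the same side of it. Named genes that a filter removed have no value there and are not in these numbers. With at least 10 counts in every mouse, 9 of the 28 calls were left. Weak copies limit all of this, since 168 of 235 members were not tested.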
